A study of Manis javanica with 3 samples.

Results

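The secreted antimicrobial proteins of mucosal glands were followed through 10 gene symbols: LYZ, LTF, LPO, LCN2, SLPI, WFDC2, PIGR, DMBT1, CAMP and PGLYRP1. Each symbol was looked up in the Swiss-Prot entry that the authors gave to every gene. Of 24220 genes, 25 carried 1 of these symbols, but the product name in the NR (non-redundant protein database) entry named another protein for 13 of them. The remaining 12 gene models had both the symbol and its own product name, and they covered 9 of the 10 symbols. LCN2 had no model by symbol. A further 4 models carried a member's product name without its symbol, namely 3 models of lysozyme C and 1 of neutrophil gelatinase-associated lipocalin, the product of LCN2. The 12 models are called the members here, and the 16 models found by product name are given beside them.

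The animal was 1 adult female Malayan pangolin (Manis javanica), a toothless mammal that feeds on ants and termites, sampled at its liver, salivary glands and small intestine. It was wild, died of natural causes while being rescued and was dissected afterwards. Each tissue gave 1 library, so no comparison between tissues has a replicate and no test of a difference between tissues was possible. No tissue received a treatment.

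Mucosal surfaces and their glands are covered by a fluid that carries proteins acting on bacteria. Lysozyme cuts the peptidoglycan wall, lactoferrin and lipocalin 2 hold back iron, lactoperoxidase makes oxidants from hydrogen peroxide, and the polymeric immunoglobulin receptor carries immunoglobulin A across the epithelium. Salivary glands are known for making most of these proteins, and in ruminants and some leaf-eating monkeys lysozyme is also a digestive enzyme of the stomach. Several members are stored in neutrophil granules as well, so they are not particular to glands.

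The counts summed to 10158924 fragments (small intestine), 8318686 (salivary glands) and 14568778 (liver), and a count of 3, used as the limit for a gene with fewer counts, stood for 0.295, 0.361 and 0.206 counts per 1000000 (CPM). Levels are given as FPKM (fragments per kilobase of transcript per 1000000 mapped fragments), with the count behind them. A ratio between libraries was taken from counts scaled by TMM (trimmed mean of M values), and its 95% interval covers counting error only. A gene entered a comparison with at least 10 counts in either library and was called higher at a ratio of at least 2. The label of the small intestine library was checked against marker genes. Of 17 gastric symbols, 12 were found as 14 models, and their summed FPKM was 161014 in that library, 132 in the salivary glands and 3.03 in the liver. The gastric enzymes PGA (94138, 71.7 and 0 FPKM in that order) and CHIA (43108, 40.0 and 0) led the list. All 11 models compared were higher in that library than in the salivary glands (20.6% of all genes). LIPF (0.539, 0 and 0) and GIF (0.872, 0 and 0) were low, and GAST was at 0 in the 3 libraries. The 12 models of enterocyte and intestine markers summed to 3.87, 1.42 and 118, and the liver sum was almost wholly MGAM (0.0682, 0.0135 and 114). Of 4 of these models compared between the mucosal libraries, 3 were higher in the small intestine (20.6% of all genes) and 1 was lower (16.9%). ALPI stood at 0.0507, 0.829 and 2.77, and FABP2 and LCT were at 0 in the 3 libraries. The 12 models of hepatocyte markers summed to 136, 125 and 42084.5. All were higher in the liver than in the salivary glands (24.9% of all genes) and the small intestine (23.9%). FGB (0, 0 and 12822) and FGG (0, 0 and 12649) were listed at 0 outside the liver. ALB stood at 89.1, 0.194 and 434 and SERPINA1 at 15.5, 120 and 586. The name small intestine is kept below as the label of the library.

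The 3 libraries each had a different leading member. WFDC2 led in the salivary glands with an FPKM of 729 and made up 87.7% of the summed FPKM of the 12 members. DMBT1 led in the small intestine (53.1, 26.0% of the sum), and PIGR led in the liver (19.5, 25.3%). The 12 members together held 0.139% of all FPKM in the salivary glands, 0.0285% in the small intestine and 0.0123% in the liver. When the 16 models found by product name were summed, the small intestine came first with 0.535%, and 93.7% of that sum was a single lysozyme C model. The order of the tissues therefore depended on whether that model was included. The leaders changed too. Among the 16 models, the liver was led by another lysozyme C model, gene25216 (30.9, 27.6% of the sum), and no longer by PIGR.

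**Figure D1:**
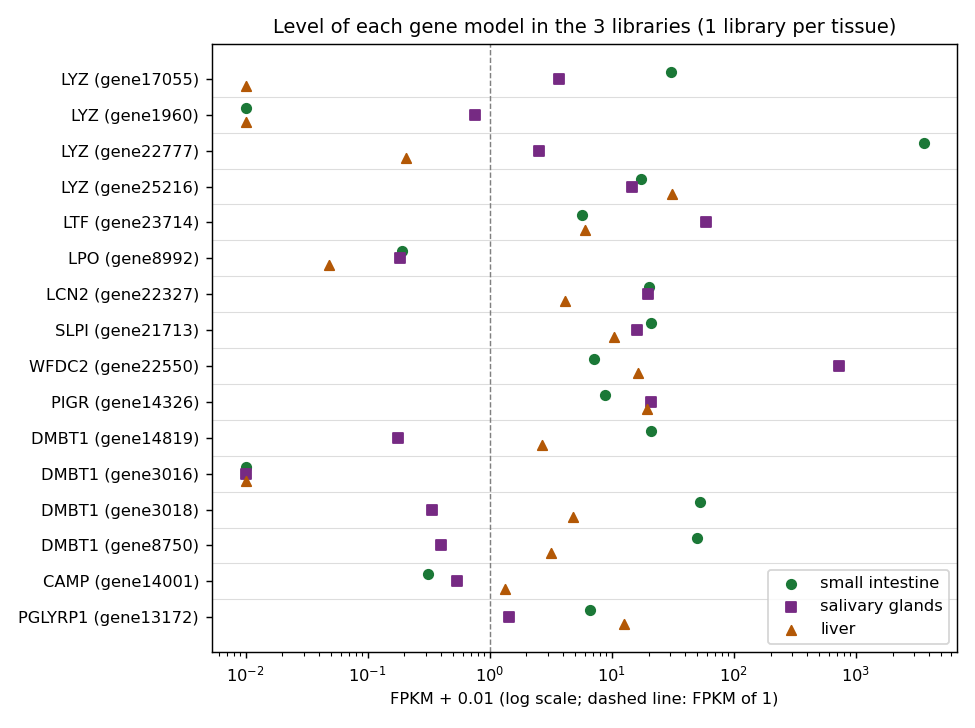
FPKM of the 16 gene models found by product name in the small intestine (circles), salivary gland (squares) and liver (triangles) libraries, on a log axis after adding 0.01, with 1 point per library. The lysozyme C model gene22777 stood at 3582 in the small intestine, WFDC2 at 729 in the salivary glands, and the liver led for none of the models above an FPKM of 100.

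An FPKM above 1 was reached by 9 of the 12 members in the small intestine, 6 in the salivary glands and 9 in the liver, against 59.4%, 56.3% and 57.0% of all genes. For each comparison 10 members had enough counts. Between the salivary glands and the small intestine, 4 were higher in the salivary glands, where 16.9% of the 16519 genes compared were higher, and 5 were higher in the small intestine, against 20.6% of genes. LTF, WFDC2, PIGR and CAMP were the 4, and 1 LYZ model, 3 DMBT1 models and PGLYRP1 were the 5. Their median log2 ratio, salivary glands over small intestine, was -1.09, against 0.02 for all genes compared.

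Between the salivary glands and the liver, 3 members were higher in the salivary glands (LTF, WFDC2 and 1 LYZ model), against 22.9% of 17162 genes. In the liver 5 were higher (3 DMBT1 models, CAMP and PGLYRP1), against 24.9% of genes, and the median log2 ratio, salivary glands over liver, was -0.66 beside -0.07 for all genes. Between the small intestine and the liver, 4 were higher in the small intestine (1 LYZ model and 3 DMBT1 models), against 24.2% of 17399 genes, and 4 were higher in the liver (WFDC2, PIGR, CAMP and PGLYRP1), against 23.9%. There the median log2 ratio, small intestine over liver, was 0.32 beside -0.08 for all genes. The members thus moved in both directions in every comparison. The 3 comparisons share libraries and are not independent. The 3 DMBT1 models, which may belong to 1 gene, weigh on these counts and medians. With the DMBT1 counts summed as 1 gene, a choice made after the values were seen, 8 of 9 members were compared. Then 4 were higher in the salivary glands and 3 in the small intestine, 3 in the salivary glands and 3 in the liver, and 2 in the small intestine and 4 in the liver. The medians changed sign, to 0.41 for salivary glands over small intestine, 0.37 for salivary glands over liver and -0.72 for small intestine over liver. In a library of a whole tissue, fewer cells of a type and less RNA per cell cannot be told apart.

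**Figure D2:**
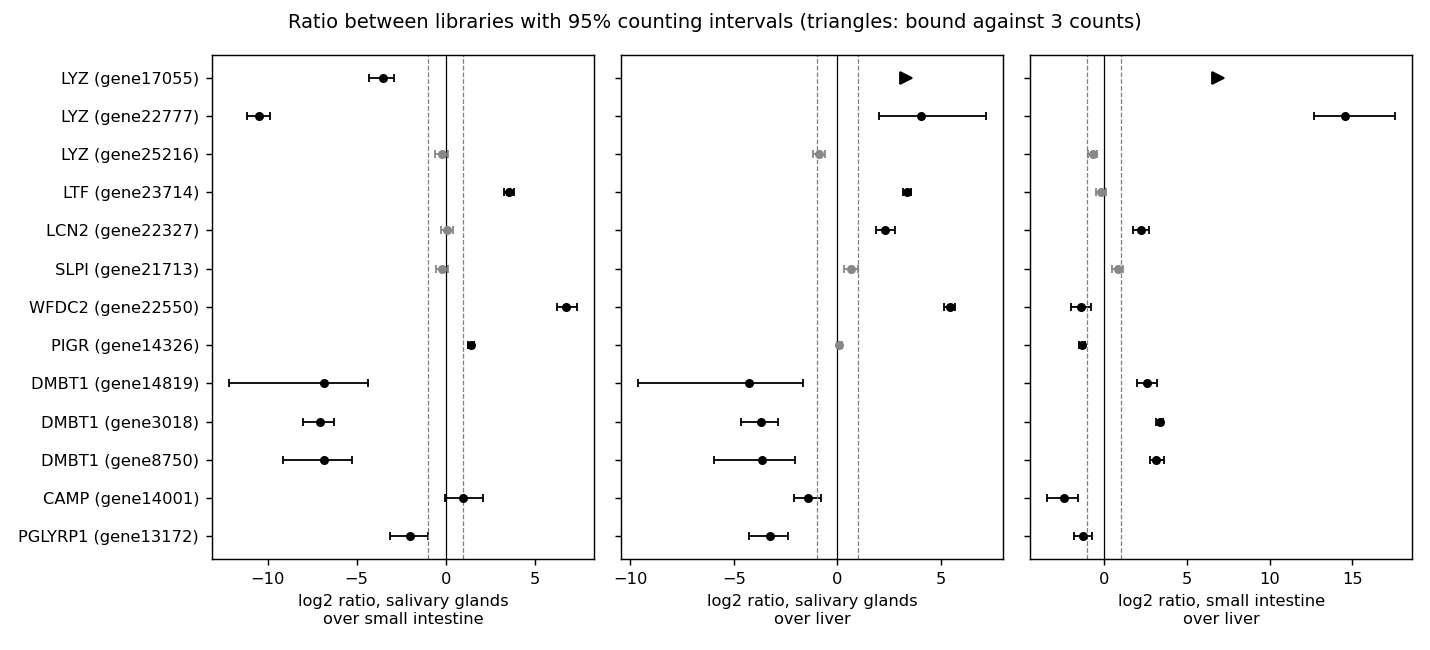
Log2 ratios of scaled counts between each pair of libraries for the 13 models with at least 10 counts in either library of a comparison, with 95% counting intervals (bars), calls at 2-fold in black and the rest in grey. Triangles mark the bound against 3 counts where a library had a count of 0, and SLPI was the member that stayed between the 2-fold lines in each panel, as did the lysozyme C model gene25216.

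Lysozyme, the enzyme that splits the peptidoglycan of bacterial walls, was represented by 4 models of differing pattern. The most abundant of the 16 models in any library was gene22777 (lysozyme C; NW_016554466.1, 46312 to 49488, minus strand). Its FPKM was 3582 in the small intestine (28048 counts), 2.54 in the salivary glands (22 counts) and 0.198 in the liver (2 counts). It ranked 14 among all genes of the small intestine library and was low in both of the others. The scaled count was 1433 times that of the salivary glands (interval 947 to 2288) and, against the 2 liver counts, 23740 times that of the liver (6571 to 196035), or 15826 times with the liver at the limit of 3 counts.

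The salivary value of gene22777 was 0.0708% of its small intestine value. The 8 other genes that had an FPKM of at least 1000 in the small intestine and were near 0 in the liver had salivary values of 0.0311% to 0.0977% of their own small intestine level, with a median of 0.0796%. The salivary reading of this lysozyme therefore lay within the range of those genes. The part of reads passing between libraries or tissues in this value was not tested. The 2 genes nearest to gene22777 by distance of log10 (FPKM + 1) over the 3 libraries were gastric ones. They were a gastricsin-like model, gene26766 (4014, 3.33 and 0.390 in the small intestine, salivary glands and liver; distance 0.120), and TFF2, a trefoil peptide of gastric mucus (3223, 2.03 and 0.503; distance 0.128). The level of this lysozyme thus stood beside the summed gastric markers given above, and their part in the result was not tested.

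The model with the LYZ symbol, gene17055, was named a non-stomach isozyme of lysozyme C (NW_016541347.1, 61970 to 66073, minus strand). Its FPKM was 30.6 in the small intestine (207 counts), 3.68 in the salivary glands (20 counts) and 0 in the liver (0 counts). It too was highest in the small intestine, 11.6 times above the salivary glands (7.34 to 19.4) and at least 117-fold above the liver, whose count of 0 was taken at the limit of 3. Against the same limit the salivary glands were at least 10-fold above the liver. The 95% counting intervals of these ratios began lower, at 94.1 and 7.43. This model was thus higher in the library that carried the gastric markers than in the salivary glands.

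Another lysozyme C model, gene25216 (isoform 1; NW_016570333.1, 10757 to 17680, plus strand), was the most abundant lysozyme model in the liver and in the salivary glands. Its FPKM was 17.3 in the small intestine (148 counts), 14.6 in the salivary glands (142 counts) and 30.9 in the liver (398 counts). The liver was the highest of the 3, but its ratio of 1.59 over the small intestine (1.31 to 1.93) and of 1.86 over the salivary glands (1.53 to 2.27) stayed under 2-fold. Between the small intestine and the salivary glands the ratio was 1.17 (0.924 to 1.49), an interval that included 1. In the salivary glands this model held 67.8% of the summed FPKM of the 4 lysozymes, in the liver 99.4%, while gene22777 held 98.7% in the small intestine. The last model, gene1960 (milk isozyme; NW_016528274.1, 433190 to 435624), had 2 counts in the salivary glands (FPKM 0.744) and 0 in the other libraries.

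Summed over the 4 models, lysozyme stood at 3630 FPKM in the small intestine, 21.6 in the salivary glands and 31.1 in the liver. Fragments of near-identical copies could have been divided between these models by the counting, so each model's level is uncertain to that extent. Of 9 symbols of lysozyme relatives, 6 were found as 6 models. None of these relatives had 10 counts in any library, and 5 of them were at 0 in the 3 libraries.

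Lactoferrin, the iron-binding protein encoded by LTF, was highest in the salivary glands (gene23714; NW_016558742.1, 19604 to 50729, minus strand). The FPKM was 5.71 in the small intestine (130 counts), 59.1 in the salivary glands (1719 counts) and 6.05 in the liver (251 counts). The salivary glands stood 11.8 times above the small intestine (9.84 to 14.2) and 10.3 times above the liver (9.03 to 11.8). The ratio of the liver to the small intestine was 1.14, with an interval (0.919 to 1.42) that included 1.

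The lipocalin 2 model, whose product holds bacterial siderophores, was gene22327 (NW_016552922.1, 15489 to 18617, plus strand), and its Swiss-Prot symbol was PTGDS. Its FPKM was 20.3 in the small intestine (142 counts), 19.9 in the salivary glands (168 counts) and 4.12 in the liver (51 counts). Unlike lactoferrin it was about level in the 2 mucosal libraries, with a salivary to intestinal ratio of 1.05 (0.837 to 1.33). It was 4.96 times higher in the salivary glands than in the liver (3.61 to 6.93) and 4.71 times higher in the small intestine than in the liver (3.40 to 6.62).

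Of 10 symbols of transferrins and receptors, 4 were found. Between the salivary glands and the small intestine 3 of the 4 were higher in the salivary glands (16.9% of all genes) and none was lower. They rested on few counts, with TF at 66 against 0, TFR2 at 14 against 2 and melanotransferrin (MFI2) at 14 against 0. Against the liver none was higher in the salivary glands (22.9% of all genes) and 2 were higher in the liver (24.9%). Serum transferrin (TF) was listed at 0 in the small intestine and had an FPKM of 2.32 in the salivary glands and 75.7 in the liver, and its receptor TFR2 stood at 0.0451, 0.385 and 104. The 16 lipocalin symbols gave 8 models. Of 7 compared, 5 were higher in the liver than in the salivary glands (24.9% of all genes) and 1 was lower (22.9%). Of 6 compared between the mucosal libraries, 1 was higher in the salivary glands (16.9%) and 3 in the small intestine (20.6%). The plasma lipocalins ORM1 (2.42 in the small intestine, 2.24 in the salivary glands and 2630 in the liver) and RBP4 (1.19, 0 and 1987) had the highest FPKM of that list.

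Lactoperoxidase, the peroxidase of saliva, milk and tears, was near its detection limit everywhere. LPO (gene8992; NW_016533220.1, 89870 to 114921, plus strand) had 6 counts in the small intestine (FPKM 0.182), 6 in the salivary glands (0.175) and 2 in the liver (0.0386). No difference was detectable at this depth, and the salivary glands did not stand above the small intestine. The other models with the LPO symbol were its neighbours on the scaffold, myeloperoxidase (MPO, 1248 bases away) and eosinophil peroxidase (EPX), which are granule enzymes of neutrophils and eosinophils. MPO had counts of 0, 0 and 1 and EPX of 0, 0 and 2 in the small intestine, salivary glands and liver.

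Other peroxidases and sources of hydrogen peroxide were found for 6 of 10 symbols, as 7 models. Of the 4 compared between salivary glands and small intestine, 1 was higher in the salivary glands (16.9% of all genes) and 3 in the small intestine (20.6%). All 4 compared between the salivary glands and the liver were higher in the salivary glands (22.9% of all genes). The 3 compared between the small intestine and the liver were higher in the small intestine (24.2%). Peroxidasin (PXDN), which cross-links collagen IV, reached 9.61 FPKM in the small intestine, 2.44 in the salivary glands and 0.191 in the liver. The oxidase DUOX2 (gene11831), which supplies hydrogen peroxide at epithelial surfaces, stood at 2.89, 0.846 and 0.0108.

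Among the inhibitors with whey acidic protein (WAP) domains, WFDC2 differed most between libraries. WFDC2 (gene22550; NW_016553585.1, 155595 to 160046, plus strand) encodes a small secreted protein of glandular and airway epithelia, also known as HE4. Its FPKM was 7.19 in the small intestine (29 counts), 729 in the salivary glands (3596 counts) and 16.3 in the liver (126 counts). It ranked 85 among all genes of the salivary gland library. The salivary count was 110 times the small intestine one (76.7 to 165) and 43.0 times the liver one (36.0 to 51.7), and the liver stood 2.57 times above the small intestine (1.70 to 3.99).

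The small intestine value of WFDC2 was 0.987% of its salivary value. For 4 genes with an FPKM of at least 1000 in the salivary glands and near 0 in the liver, the small intestine value was 0.157% to 0.265% of the salivary one. WFDC2 lay above that range, but at 729 in the salivary glands and 16.3 in the liver it met neither condition. The range need not apply to it. The genes nearest to WFDC2 over the 3 libraries were UCP2, a mitochondrial carrier (12.9 in the small intestine, 438 in the salivary glands and 15.3 in the liver; distance 0.319), and keratin 7 of simple and glandular epithelia (gene10005; 12.7, 197 and 15.2; distance 0.609). Of 18 salivary gland symbols, 7 were found, which summed to 17.2 FPKM in the small intestine, 140 in the salivary glands and 46.9 in the liver. Among them the water channel AQP5 stood at 2.29, 94.3 and 24.7 and the secreted protein PIP at 0.481, 28.0 and 0, while BPIFA1 was at 0 in the 3 libraries. Of 6 compared, 3 were higher in the salivary glands than in the small intestine (16.9% of all genes) and none was lower. Against the liver, 3 were higher in the salivary glands (22.9%) and 2 were lower (24.9%). AMY2 (8.56, 5.39 and 16.3), MUC5B (0.199, 0.245 and 3.01) and KLK1 (1.71, 2.27 and 2.83), named here after their values were seen, had their highest level in the liver. The part of the number of gland cells in the WFDC2 and LTF results was not tested.

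SLPI, the secretory leukocyte protease inhibitor, behaved differently from WFDC2 (gene21713; NW_016550788.1, 45892 to 49740, minus strand). The FPKM was 21.0 in the small intestine (152 counts), 16.0 in the salivary glands (150 counts) and 10.5 in the liver (144 counts). The 3 libraries lay close together, and no ratio reached 2-fold. The small intestine was 1.14 times the salivary glands (0.903 to 1.44) and 1.79 times the liver (1.41 to 2.26), and the salivary glands were 1.57 times the liver (1.24 to 1.99). A list of 16 symbols of other WAP proteins and related Kunitz inhibitors gave 3 models, of which 1 was at 0 in the 3 libraries. WFDC5 had 0.424 FPKM in the salivary glands and 1.62 in the small intestine, with 0.112 in the liver, and the Kunitz inhibitor SPINT2 had 404 in the salivary glands, 128 in the small intestine and 90.2 in the liver.

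**Figure D3:**
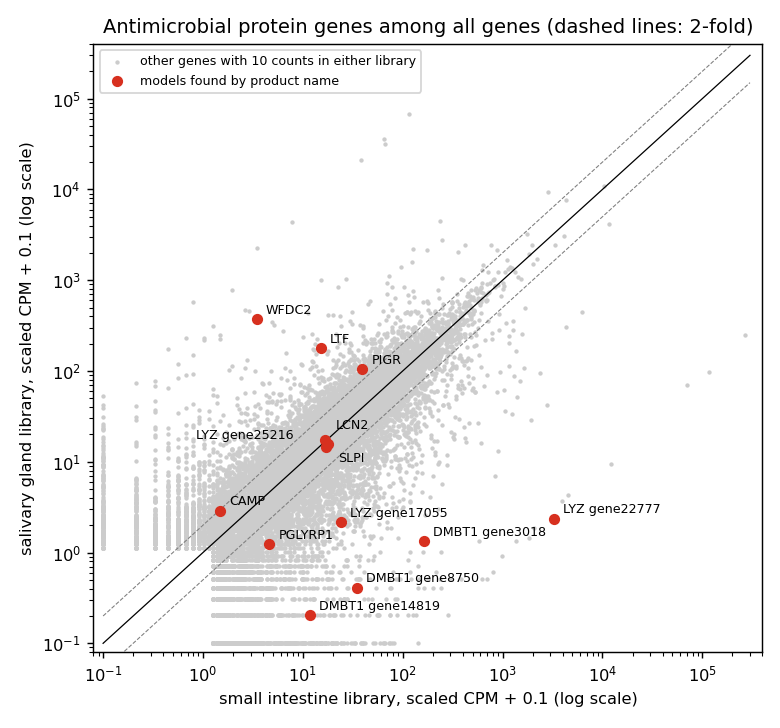
Scaled CPM plus 0.1 of each gene in the small intestine library (horizontal, log axis) and the salivary gland library (vertical, log axis), for genes with at least 10 counts in either, with the models found by product name in red and dashed lines at 2-fold. WFDC2 and LTF lay above the upper line at ratios of 110 and 11.8, and gene22777 and the 3 DMBT1 models lay far below the lower one.

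PIGR, the receptor that carries polymeric immunoglobulin A through epithelial cells and is released as secretory component, was present in all libraries (gene14326; NW_016537788.1, 33538 to 51072, plus strand). Its FPKM was 8.75 in the small intestine (340 counts), 20.8 in the salivary glands (1019 counts) and 19.5 in the liver (1431 counts). The small intestine was the lowest, with the salivary glands 2.67 times (2.36 to 3.02) and the liver 2.49 times (2.21 to 2.81) above it. The salivary glands and the liver were close together, at a ratio of 1.07 (0.988 to 1.16).

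On its scaffold PIGR stood between FCAMR and FCMR, both Fc receptor genes, and the RefSeq table of another assembly of this species places it between the same neighbours. FCMR carried the PIGR symbol and had counts of 31, 3 and 26 in the small intestine, salivary glands and liver. The other model under that symbol, gene12500, was named CMRF35-like molecule 7-like and had 6, 6 and 116. Genes of IgA transport and plasma cells were found for 8 of 16 symbols as 9 models. The J chain (IGJ) joins immunoglobulin A and M into polymers. It reached 1.67 FPKM in the small intestine (13 counts), 10.1 in the salivary glands (79 counts) and 30.1 in the liver (308 counts). Like PIGR it was lowest in the small intestine. The chemokine CCL28 (4.04, 2.76 and 0.551) and FCAMR (1.88, 0.0787 and 0) were instead highest there. The neonatal Fc receptor FCGRT stood at 83.8, 113 and 69.3. Of the list, 2 genes of 6 compared were higher in the salivary glands than in the small intestine (16.9% of all genes) and 1 was lower (20.6%). Against the salivary glands, 4 of 6 were higher in the liver (24.9%) and 1 was lower (22.9%). Between the small intestine and the liver, 2 of 7 were higher in the small intestine (24.2%) and 4 in the liver (23.9%).

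DMBT1, a scavenger receptor of mucus and saliva that binds bacteria and is also called salivary agglutinin, was nearly absent from the salivary gland library. The model with most counts, gene3018 (NW_016528884.1, 737888 to 773656, minus strand), reached 53.1 FPKM in the small intestine (1421 counts), 0.329 in the salivary glands (12 counts) and 4.79 in the liver (234 counts). The small intestine was 133 times above the salivary glands (76.0 to 258) and 10.3 times above the liver (8.95 to 11.9). The liver was 13.0 times above the salivary glands (7.27 to 25.4). The salivary glands were thus the lowest of the 3 libraries for a protein known from saliva.

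The same order was seen in 2 shorter models. On NW_016532962.1 (1530 to 53508), gene8750 reached 49.7 FPKM in the small intestine (303 counts), 0.392 in the salivary glands (3 counts) and 3.17 in the liver (57 counts). On NW_016538354.1 (36 to 13162), gene14819 had 21.0 (102 counts), 0.167 (1 count) and 2.67 (29 counts). A model beside gene3018, gene3016, had no count in any library.

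The gene that followed gene8750 on its scaffold was HTRA1. In the RefSeq table of the other assembly DMBT1 is listed once and HTRA1 is its neighbour, and C10orf120, which lay between gene3016 and gene3018 here, is among the 3 genes before it. Whether the models are pieces of 1 gene was not tested. Their counts were also summed, which gave 1826 in the small intestine, 16 in the salivary glands and 320 in the liver. In sum the small intestine was 128 times above the salivary glands (78.8 to 225) and 9.66 times above the liver (8.57 to 10.9), and the liver was 13.3 times above the salivary glands (8.05 to 23.5).

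Many scavenger receptor cysteine-rich proteins had been given the DMBT1 symbol. The clearest was CD5L, a protein secreted by macrophages (gene3265), with 0.0956 FPKM in the small intestine (2 counts), 0.727 in the salivary glands (19 counts) and 21.8 in the liver (869 counts). It was 30.4 times higher in the liver than in the salivary glands (19.3 to 50.7), and its order over the libraries differed from that of DMBT1. HHIPL1 (gene2298) had counts of 126, 472 and 928, CD6 (gene19227) 21, 5 and 78, SSC5D (gene25999) 35, 41 and 16, and SSC4D (gene5475) 12, 4 and 6. CUZD1 (gene3014) had no count, and an unnamed model (gene3015) and CSMD2 (gene9506) had 2 and 1 counts in the liver and the small intestine.

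The macrophage markers, CD5L among them, summed to 49.1 FPKM in the small intestine, 38.8 in the salivary glands and 757 in the liver. All 8 models were higher in the liver than in either other library. C1QC stood at 18.7, 16.3 and 367 and C1QB at 19.1, 12.3 and 276. Among all genes, 24.9% were higher in the liver than in the salivary glands, 22.9% were lower, and 23.9% were higher than in the small intestine. Of the 12 models of the scavenger receptor list, 7 of 10 compared were higher in the liver than in the salivary glands and 3 were lower. CD5L, CD163 and the receptor MARCO were in both lists, so these results are not separate. The macrophage receptor CD163 had an FPKM of 7.67, 6.96 and 61.0, and the secreted LGALS3BP had 61.9, 13.7 and 46.4.

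CAMP encodes the cathelicidin precursor, which is stored in neutrophils and also made by epithelia, and it was low throughout (gene14001; NW_016537551.1, 77954 to 82643, plus strand). The FPKM was 0.302 in the small intestine (12 counts), 0.525 in the salivary glands (27 counts) and 1.31 in the liver (109 counts). The liver was the highest, 2.68 times above the salivary glands (1.75 to 4.25) and 5.37 times above the small intestine (2.95 to 10.7). The salivary glands passed the 2-fold limit over the small intestine only just, at 2.0, and that interval of 0.980 to 4.34 included 1. At these low levels both liver calls were lost on ratios of FPKM + 1, with log2 ratios of -0.60 for salivary glands over liver and -0.83 for small intestine over liver.

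PGLYRP1, a peptidoglycan recognition protein of neutrophil granules, was also highest in the liver (gene13172; NW_016536723.1, 29950 to 33492, minus strand). Its FPKM was 6.60 in the small intestine (39 counts), 1.43 in the salivary glands (11 counts) and 12.6 in the liver (157 counts). The liver was 9.48 times above the salivary glands (5.16 to 19.4) and 2.38 times above the small intestine (1.67 to 3.47), and the small intestine was 3.99 times above the salivary glands (2.0 to 8.63). The salivary glands were lowest.

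The opposite order was shown by PGLYRP3, an epithelial relative that carried the PGLYRP1 symbol (gene23869). It reached 0.797 FPKM in the small intestine (21 counts), 5.49 in the salivary glands (170 counts) and 0.146 in the liver (8 counts), and was 7.20 times higher in the salivary glands than in the small intestine (4.56 to 11.9) and 32.0 times higher than in the liver (15.9 to 75.3). It overlapped S100A9 at 1 end on its scaffold, next to S100A12 and S100A8, and with an alignment that did not use strand the reads of overlapping genes cannot be told apart. S100A9, named so by its symbol though its product name was that of an RNA-binding protein, had 44.1 in the salivary glands, 166 in the small intestine and 231 in the liver, another order than that of PGLYRP3. Of the 5 models of peptidoglycan recognition, PGLYRP3 among them, 3 were higher in the salivary glands than in the small intestine (16.9% of all genes) and none was lower. Against the liver, 1 was higher in the salivary glands (22.9%) and 2 in the liver (24.9%). Between the small intestine and the liver, 1 was higher in the small intestine (24.2%) and 2 in the liver (23.9%). PGLYRP2, an amidase secreted by the liver, stood at 0.917, 4.07 and 31.3, and the receptor TLR2 at 1.52, 6.49 and 8.90.

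Since CAMP, PGLYRP1, LTF and LCN2 are also products of neutrophils, the neutrophil markers are given beside them. Of 22 symbols, 12 were found as 14 models, which summed to 544 FPKM in the small intestine, 66.5 in the salivary glands and 450 in the liver. All 12 compared were higher in the liver than in the salivary glands (24.9% of all genes). Against the small intestine, 8 of 12 were higher in the liver (23.9%), with 1 lower (24.2%). The sum was mostly S100A8 (354 in the small intestine, 13.8 in the salivary glands and 105 in the liver) and S100A9. ELANE was at 0 in the 3 libraries and CSF3R at 0 in the small intestine. The sum of the list was thus highest in the small intestine, while its median FPKM was 0.437 there, 0.423 in the salivary glands and 5.69 in the liver. CAMP and PGLYRP1 were highest in the liver, whereas LTF and LCN2 were higher in the salivary glands than in the liver. The part of neutrophils in these results was not tested.

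**Figure D4:**
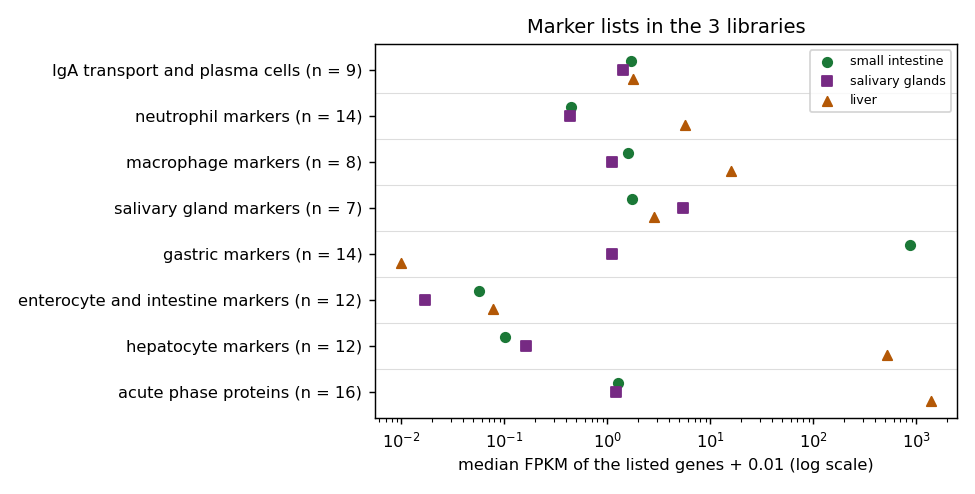
Median FPKM plus 0.01 of the models of each marker list in the small intestine (circles), salivary gland (squares) and liver (triangles) libraries, on a log axis, with the number of models in brackets. Gastric markers had a median of 862 in the small intestine, and the neutrophil and macrophage medians were highest in the liver.

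Antimicrobial peptides and small proteins outside the 10 symbols were found for 16 of 33 symbols as 18 models. Between the salivary glands and the small intestine, 5 of 12 compared were higher in each (16.9% and 20.6% of all genes). Against the liver, 6 of 13 were higher in the salivary glands (22.9%) and 7 in the liver (24.9%). Between the small intestine and the liver, 5 of 13 were higher in the small intestine (24.2%) and 3 in the liver (23.9%). The beta-defensin DEFB1 (gene20796), a peptide made by epithelia, reached 41.2 FPKM in the small intestine (153 counts), 899 in the salivary glands (4067 counts) and 2.34 in the liver (18 counts). It was 23.6 times higher in the salivary glands than in the small intestine (20.1 to 28.0), and above every one of the 12 members there. A further DEFB1 model went the same way, with 2, 181 and 0 counts. A DEFB1-like model outside the 18, gene20797, went the other way, at 40.7 FPKM (104 counts), 1.90 (6 counts) and 0. Its small intestine level was 19.5 times the salivary one (8.66 to 54.3). LBP (gene4746), which binds lipopolysaccharide and is made by the liver in the acute phase, stood at 73.7, 186 and 1212. Another LBP model, gene4747, was highest in the salivary glands, at 0.101, 2.13 and 0.315 (2, 46 and 10 counts).

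The 9 lists of related genes held 72 models. Between the salivary glands and the small intestine, 17 of 48 compared were higher in the salivary glands (16.9% of all genes) and 16 in the small intestine (20.6% of all genes), with a median log2 ratio of 0.05 beside 0.02 for all genes. The liver was higher for 27 of 50 against the salivary glands (24.9% of all genes), which were higher for 17 (22.9%), with a median log2 ratio, salivary glands over liver, of -1.45. It was higher for 23 of 52 against the small intestine (23.9%), which was higher for 18 (24.2%), with a median, small intestine over liver, of -0.71. Acute phase proteins had a median of 1.26 FPKM in the small intestine, 1.19 in the salivary glands and 1384 in the liver. Their list shares LBP and ORM1 with the lists above, so the 2 results are not separate. Haptoglobin (HP) stood at 51.2, 6.34 and 25755 and hepcidin (HAMP) at 3.07, 0 and 30304. The part of an acute phase response in the levels of LBP, ORM1 and TF was not tested.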

How the data were processed

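RNA of the 3 tissues was sequenced on an Illumina HiSeq instrument, 1 library each. The authors trimmed reads, aligned them with TopHat2 in its unstranded setting and joined reads outside annotated genes with Cufflinks; their methods name RSEM for the FPKM used in tissue correlations, and the tool behind the deposited count and the genome build are not given in the sources used here. The deposited count of each gene is an unscaled number of fragments, up to about 2.07 above the estimate behind it. The deposited FPKM was made by the authors per transcript length and mapped fragments. A further score deposited by the authors, the estimated count times 1 factor per library, was read only to check the counts.

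Members and lists were chosen with earlier results of these data known, and models were reassigned by their NR product name after their values were seen. Named genes are all models with a member symbol and the 2 genes with the highest FPKM of each list (at least 10 counts in 1 library). The 2 nearest to each model with an FPKM of at least 100 were also named. ELANE, CSF3R, FABP2, LCT and BPIFA1 were added as markers at 0, and AMY2, MUC5B and KLK1 as markers highest in the liver. FCAMR, HTRA1, C10orf120 and S100A12 were added as neighbours. Added after their values were seen were ALB and SERPINA1 (hepatocyte markers read outside the liver), MFI2 (few counts), gene20797 and a further DEFB1 model. So were CCL28, MARCO, GAST, LIPF, GIF, the values of FCAMR and the LBP model gene4747. Swiss-Prot symbols may stand for paralogs.

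Counts were divided by totals times TMM factors (edgeR 4.0.16, R 4.3.3; factors 0.851, 1.17 and 1.00 for small intestine, salivary glands and liver). Ratios carry exact 95% binomial intervals (scipy 1.17.1, Python 3.11.15, pandas 2.3.3, numpy 2.4.6; figures matplotlib 3.10.9), and counts below 3 were taken as 3 in calls and medians; ratios printed with an interval use the counts as deposited. Alternatives were other scalings, FPKM ratios, no count filter, an FPKM filter, 4-fold, other FPKM limits and other member sets. RefSeq names came from assembly MJ_LKY, whose coordinates were not used. No sequences are printed.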

Additional observations from a re-analysis of the deposited data

How the results depend on the processing

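With 1 library per tissue no replicate could be left out. No paired analysis was possible because each tissue has 1 library and no test was run. Of the alternative values for the 9 counts of members in the report, 67 stayed within 1.5 times and 14 moved. At 4-fold in place of 2-fold, 2 members were higher in the salivary glands than in the small intestine (5.99% of all genes). At 4-fold, 1 was higher in the liver than in the small intestine (10.6%). The latter count was 2 from ratios of FPKM + 1 (18.3% of all genes). By product name, 5 models of 13 compared were higher in the salivary glands than in the liver (22.9% of all genes). Every model with a member symbol was also counted, a set added after the data were seen. Of 17 compared, 7 were then higher in the salivary glands (16.9% of all genes) and 8 in the small intestine (20.6%). Against the liver, 5 of 17 were higher in the salivary glands (22.9%) and 9 in the liver (24.9%). Of 18 compared, 8 were higher in the small intestine (24.2%) and 8 in the liver (23.9%). With the DMBT1 models summed as 1 gene, also added later, 8 members were compared. Above the salivary glands were 3 in the small intestine (20.6% of all genes) and 3 in the liver (24.9%). In the small intestine 2 were higher than in the liver (24.2%). With an FPKM above 5 in place of 1, 5 members passed in the liver. CAMP was no longer called higher in the salivary glands than in the small intestine under RLE size factors, FPKM ratios or 4-fold, nor higher in the liver than in the salivary glands under FPKM + 1 or 4-fold, nor than in the small intestine under FPKM + 1. PGLYRP1 was no longer called between the liver and the small intestine under FPKM ratios or 4-fold, nor between the mucosal libraries at 4-fold. Of the levels (as TPM) and shares (without the 10 most abundant genes), 46 alternative values moved beyond their 95% counting error and 26 did not. With library size only, the median log2 ratio of all genes was 0.47 for salivary glands over small intestine, 0.15 for salivary glands over liver and -0.32 for small intestine over liver. Depth limits LPO, the values of CAMP outside the liver and the salivary values of DMBT1, which rest on few counts.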
